A study of Mus musculus with 7 samples.

Results

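The MAP kinase phosphatases described here are 8 genes of the dual-specificity phosphatase (Dusp) family, Dusp1, Dusp2, Dusp4, Dusp5, Dusp6, Dusp7, Dusp10 and Dusp14, measured by RNA sequencing in the forebrain of mice at postnatal day 15. They were given as a list of gene symbols, with no threshold on a measured value, and all 8 were found among the 47729 genes of the count table, which lists another 16 Dusp genes. The 4 control libraries came from Lhx6+/- mice and the 3 mutant libraries from Lhx6-/- mice, all of the strain F1(C57BL/6 X 129Sv). Controls therefore also carried 1 null allele (Lhx6tm2Vpa), and no wild-type forebrain was part of the comparison. Lhx6 is a LIM homeobox transcription factor that interneurons born in the medial ganglionic eminence (MGE) need in order to mature. Each library pooled the forebrains of 2 animals, and the error given is that among pools. In the sample records, control pools held 2 males or 2 females, and mutant pools held 2 females or 1 of each sex. Pools of 2 males were thus found only among controls, and sex was not matched between the genotypes. Library columns carry only a genotype and a library number (2, 3, 10 and 11 for controls, 5, 12 and 13 for mutants). Sex was therefore not assigned to a library, and its part in the changes was not tested.

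MAP kinases (ERK, JNK and p38) are switched on when an upstream kinase phosphorylates a threonine and a tyrosine in their activation loop, and a dual-specificity phosphatase switches them off by removing both phosphates. Dusp1, Dusp2, Dusp4 and Dusp5 encode nuclear enzymes, and Dusp6 and Dusp7 encode cytoplasmic enzymes that prefer ERK. Transcription of many of these genes is itself induced by MAP kinase signalling, which makes them negative feedback regulators and, in neurons, members of the set of genes that respond to synaptic activity. Dusp10 prefers JNK and p38, and Dusp14 is a small atypical phosphatase without the domain that docks on MAP kinases.

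Of the 8 genes, 3 rose in the mutant forebrain: Dusp4 by 3.53-fold, Dusp5 by 2.40-fold and Dusp6 by 1.52-fold. None of the 8 was called lower and 5 did not pass the test (edgeR's quasi-likelihood test on rounded expected counts, adjusted p of 0.05 or less by the Benjamini-Hochberg method over all genes tested). Across all 19684 genes tested, 4.85% were called in either direction, 2.97% higher and 1.87% lower. The fitted change was positive for 7 genes and negative for Dusp10, and the median over the 8 genes was 0.62 on the log2 scale, against -0.01 over all genes tested. Counting only whether the libraries of the genotypes overlapped, 4 of the 8 genes were higher in every mutant library than in every control library (10.7% of all genes tested) and 1 was lower (9.00% of all genes tested). Before adjustment 6 of the 8 genes had p of 0.05 or less in edgeR, all but Dusp7 and Dusp14, as did 18.2% of all genes tested. All 8 genes passed the filter on low counts.

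Lhx6 itself checked the labels. Its normalized counts, which are counts scaled to a common effective library size, were 615, 522, 476 and 522 in controls 2, 3, 10 and 11 and 70.9, 76.6 and 70.1 in mutants 5, 12 and 13, an order kept for every gene below. Libraries held between 32556304 and 38069151 expected counts, and a count of 0 would allow up to 3 counts, or 0.0788 to 0.0921 CPM (counts scaled to the size of the library), which covers counting error only. On a principal component analysis the first component, with 39.6% of the variance, set libraries 2, 3 and 5 apart from libraries 10 to 13. What these runs of library numbers stand for is not given in the sources used here, so the change of each of the 8 genes is also given within them. Because whole forebrain was sequenced, more cells of a type and more RNA per cell cannot be told apart.

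Per length of transcript, the phosphatases of the control forebrain spanned a wide range of levels. Dusp7 stood at 26.2 ± 1.97 CPM per kb of exon (SD, n = 4) and Dusp6 at 25.7 ± 1.85, and their control ranges overlapped, so the order of these neighbours is not set by the data. Dusp14 followed at 20.01 ± 1.60 CPM per kb and Dusp1 at 11.7 ± 2.38. Dusp5 stood at 4.73 ± 0.68 CPM per kb and Dusp4 at 3.81 ± 0.56, with ranges of 4.34 to 5.75 and 2.99 to 4.22 that nearly touched. Dusp10 at 2.08 ± 0.20 CPM per kb and Dusp2 at 0.70 ± 0.30 were the lowest. In the mutant forebrain Dusp6 stood first, at 39.0 ± 6.17 CPM per kb (n = 3), above every value of Dusp7, at 27.6 ± 1.25. Dusp1 at 18.3 ± 3.47 CPM per kb then overlapped Dusp14 at 22.8 ± 1.97, Dusp4 at 13.5 ± 1.42 overlapped Dusp5 at 11.3 ± 1.92, and Dusp2 at 1.35 ± 0.49 overlapped Dusp10 at 1.21 ± 0.31. The 8 levels summed to 88.0 to 99.2 CPM per kb in control libraries and 124 to 151 in mutant libraries. Dusp4 made up 3.40% to 4.44% of that sum in controls and 9.59% to 10.7% in mutants, whereas Dusp7 made up 26.0% to 28.8% in controls and 18.9% to 22.7% in mutants.

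**Figure D1:**
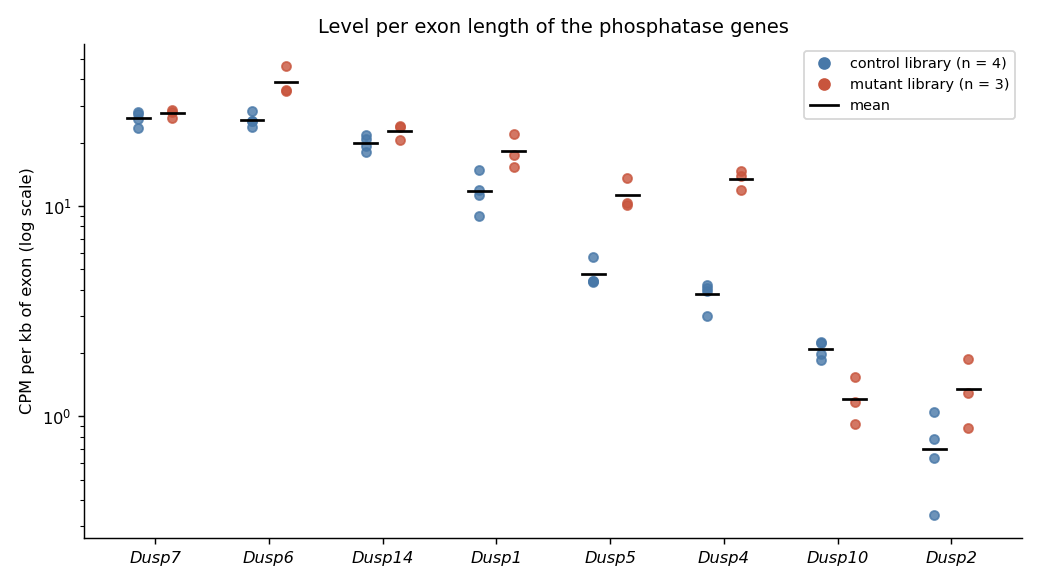
Level of each phosphatase gene in CPM per kb of exon (log scale), with 1 point for each of the 4 control and 3 mutant libraries and a bar at each mean. Dusp4 and Dusp5 lie below Dusp1 in both genotypes and move up in the mutant libraries, the means of Dusp7 stand at 26.2 and 27.6 CPM per kb, and Dusp2 and Dusp10 are the lowest of the 8 in both genotypes.

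Of the nuclear enzymes, Dusp4 and Dusp5 rose. All 4 had positive fitted changes, 2 of them passed the test, and their median change was 1.10 on the log2 scale. Dusp4, an inducible phosphatase that acts on ERK and JNK, lies on chr8:34807297-34819894 (GRCm38, plus strand). Its normalized counts were 412, 292, 398 and 385 in the controls, against 1355, 1426 and 1159 in the mutants. The lowest mutant library stood far above the highest control library, and control library 3 was the lowest of all. The means were 372 ± 54.3 (SD, n = 4) and 1313 ± 138 (n = 3), a log2 change of 1.82 (SE 0.136, 95% interval 1.51 to 2.13, edgeR adjusted p = 0.00044). Dusp4 ranked 138 by increase among the 19684 genes tested. Within libraries 2, 3 and 5 the log2 ratio of the genotype means was 1.94, and within libraries 10 to 13 it was 1.72. Dusp4 passed the threshold under all 17 alternative analyses.

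Dusp5, a nuclear phosphatase selective for ERK, lies on chr19:53529109-53542431 (GRCm38, plus strand). Normalized counts of Dusp5 were 388, 390, 507 and 382 in the controls, against 893, 1194 and 910 in the mutants. The genotypes did not overlap, although control library 10 stood above the other controls and mutant library 12 above the other mutants. The means were 417 ± 60.0 and 999 ± 169, a log2 change of 1.26 (SE 0.148, 95% interval 0.93 to 1.60, edgeR adjusted p = 0.0027). The log2 ratios within the runs of library numbers were 1.20 and 1.24, and Dusp5 also passed under all 17 alternatives. Of the 36-base words of its transcripts, 21% also occur in a locus that the count table does not list, so reads from that locus could be counted in Dusp5.

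Dusp1, an early-response phosphatase of ERK, JNK and p38, lies on chr17:26505590-26508519 (GRCm38, minus strand). Normalized counts of Dusp1 were 1088, 861, 1418 and 1140 in the controls, against 1687, 2121 and 1466 in the mutants. The lowest mutant library lay just above the highest control library, so the genotypes did not overlap but nearly met. The means were 1127 ± 229 and 1758 ± 333, a log2 change of 0.64 (SE 0.175, 95% interval 0.24 to 1.04) that did not pass the test (edgeR adjusted p = 0.0799). Among libraries 2, 3 and 5 the log2 ratio was 0.79, and among libraries 10 to 13 it was 0.49. Dusp1 passed under 2 of the 17 alternatives, edgeR with a term for the run of library numbers (adjusted p = 0.0357) and DESeq2 (adjusted p = 0.0088). With libraries 10 to 13 only, its edgeR adjusted p was 0.0926.

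Dusp2, another early-response nuclear phosphatase, lies on chr2:127336159-127338376 (GRCm38, plus strand) and had the fewest reads of the 8 genes. Normalized counts of Dusp2 were 74.6, 24.1, 45.1 and 55.9 in the controls, against 133, 63.1 and 91.8 in the mutants. Mutant library 12 fell below control library 2, so the genotypes overlapped, and within a genotype the highest library stood well above the lowest. The log2 change of 0.95 (SE 0.377, 95% interval 0.09 to 1.80) did not pass the test (edgeR adjusted p = 0.226), and its interval was the widest of the 8 genes. The log2 ratios within the runs of library numbers were 1.43 and 0.62.

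**Figure D2:**
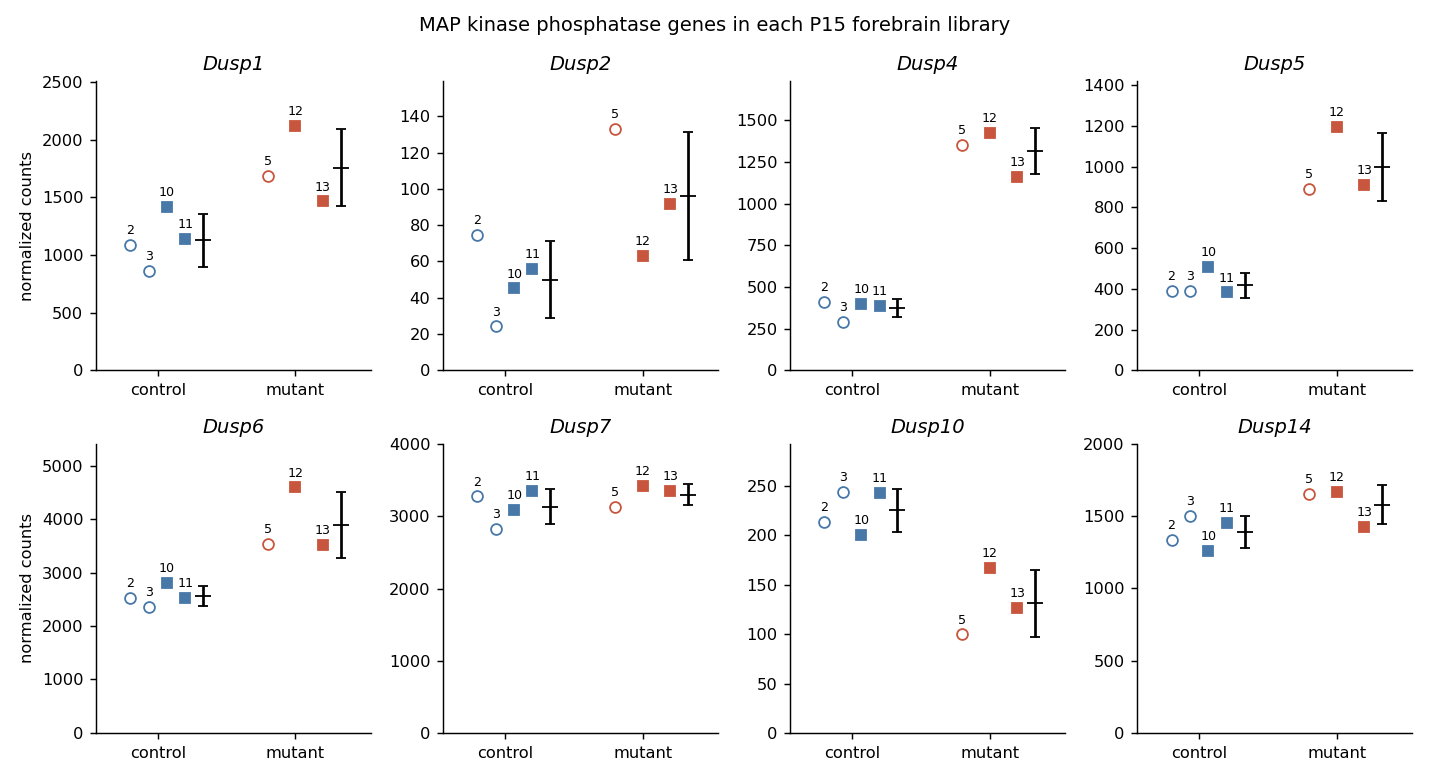
Normalized counts of the 8 phosphatase genes, 1 panel each, with 1 point per library (open circles for libraries 2, 3 and 5, filled squares for libraries 10 to 13) and bars for the mean ± SD of 4 control and 3 mutant libraries. All mutant points lie above all control points for Dusp1, Dusp4, Dusp5 and Dusp6, below them for Dusp10, and overlap them for Dusp2, Dusp7 and Dusp14.

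The stretches upstream of these nuclear enzymes' genes are shown for the letters recognised by factors that carry activity and MAP kinase signals to immediate early genes. A RefSeq sequence (GRCm38.p6) of the 250 bases before the start was found for 7 of the 8 genes, all but Dusp4. Motifs searched on either strand were the cAMP response element TGACGTCA (in 1.62% of 27018 promoters) and its core TGACG, which the full element contains (17.9%), the AP-1 site TGANTCA (6.87%), the Egr site GCGNGGGCG (4.65%), the Ets site CCGGAAG (7.05%) and the CArG box bound by serum response factor (1.40%). Matches were found upstream of Dusp1, Dusp2 and Dusp5. They are shown 5′ to 3′ on the gene's strand with the matches in capitals, up to the first base that the deposited annotation counts as transcribed.
Dusp1 (chr17:26508520-26508722, minus strand): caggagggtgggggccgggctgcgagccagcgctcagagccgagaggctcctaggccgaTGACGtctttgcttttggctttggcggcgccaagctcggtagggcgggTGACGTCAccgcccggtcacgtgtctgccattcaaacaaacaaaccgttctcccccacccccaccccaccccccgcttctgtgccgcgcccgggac
Dusp5 (chr19:53528895-53529108, plus strand): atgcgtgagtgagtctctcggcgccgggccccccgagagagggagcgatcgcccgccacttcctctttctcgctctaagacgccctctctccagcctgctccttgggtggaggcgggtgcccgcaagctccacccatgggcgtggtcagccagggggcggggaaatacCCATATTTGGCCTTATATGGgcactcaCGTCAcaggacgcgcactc
Dusp2 (chr2:127335909-127336158, plus strand): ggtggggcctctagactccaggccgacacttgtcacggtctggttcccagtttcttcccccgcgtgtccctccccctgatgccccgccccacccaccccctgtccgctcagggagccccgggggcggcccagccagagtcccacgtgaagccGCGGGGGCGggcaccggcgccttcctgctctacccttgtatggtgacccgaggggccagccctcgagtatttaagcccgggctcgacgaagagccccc
In the Dusp1 sequence the capitals mark a core cAMP response element 191 bases and a full one 143 bases before the RefSeq start. In the Dusp5 sequence they mark a pair of adjoining CArG boxes, which begin 82 and 72 bases before the start, and a core cAMP response element 55 bases before it. In the Dusp2 sequence they mark an Egr site 98 bases before the start. In the same window before the RefSeq starts of Dusp6, Dusp7, Dusp10 and Dusp14 none of these letters was found. The windows of Dusp10 and Dusp14 lie inside the gene spans of the deposited annotation, which begin farther upstream. Of the genes with matches, Dusp5 passed the test between genotypes and Dusp1 and Dusp2 did not, and binding of a factor was not measured.

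Of the cytoplasmic ERK phosphatases, Dusp6 rose and Dusp7 did not pass the test. Dusp6, a feedback inhibitor of ERK downstream of growth factor receptors, lies on chr10:99263231-99267488 (GRCm38, plus strand). Its normalized counts were 2533, 2364, 2807 and 2526 in the controls, against 3537, 4593 and 3520 in the mutants. The genotypes did not overlap, and mutant library 12 stood apart above the other mutant libraries. The means were 2558 ± 184 and 3883 ± 615, a log2 change of 0.60 (SE 0.112, 95% interval 0.35 to 0.86, edgeR adjusted p = 0.0196), with log2 ratios of 0.53 and 0.61 within the runs of library numbers. The call was lost in edgeR without mutant library 12 (adjusted p = 0.0589), control library 11 (0.0548) or control library 2 (0.0504). With each library left out in turn, the log2 change of Dusp6 ran from 0.47 to 0.68.

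Dusp7, the close relative of Dusp6, lies on chr9:106368632-106375724 (GRCm38, plus strand). Its normalized counts were 3275, 2823, 3090 and 3354 in the controls, against 3132, 3417 and 3356 in the mutants. The genotypes overlapped, with mutant library 5 within the control range. The log2 change was 0.07 (SE 0.083, edgeR adjusted p = 0.726), and its 95% interval, -0.11 to 0.26, ended below the start of that of Dusp6. The difference between the changes of the 2 genes was not itself tested. The log2 ratios of Dusp7 within the runs were 0.04 and 0.07.

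Dusp10 had the only negative change. It encodes a phosphatase of JNK and p38 and lies on chr1:184013302-184075636 (GRCm38, plus strand). Its normalized counts were 214, 244, 201 and 243 in the controls, against 99.6, 167 and 127 in the mutants. Every mutant library lay below every control library. The means were 225 ± 21.6 and 131 ± 33.7, a log2 change of -0.78 (SE 0.187, 95% interval -1.21 to -0.36) that just missed the threshold (edgeR adjusted p = 0.0513). Among libraries 2, 3 and 5 the log2 ratio was -1.20, and among libraries 10 to 13 it was -0.60. Dusp10 passed under 6 of the 17 alternatives, among them edgeR with a term for the run (adjusted p = 0.0207) and DESeq2 (adjusted p = 0.0038).

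Dusp14, on chr11:84048041-84069261 (GRCm38, minus strand), had normalized counts of 1337, 1501, 1257 and 1451 in the controls, against 1651, 1666 and 1422 in the mutants. The genotypes overlapped through mutant library 13, and the log2 ratios within the runs were 0.22 and 0.19. The log2 change was 0.19 (SE 0.093, 95% interval -0.02 to 0.40, edgeR adjusted p = 0.340), and 2.78% of the gene's 36-base words also occur in Gm18555, so a small part of its reads could be shared.

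**Figure D3:**
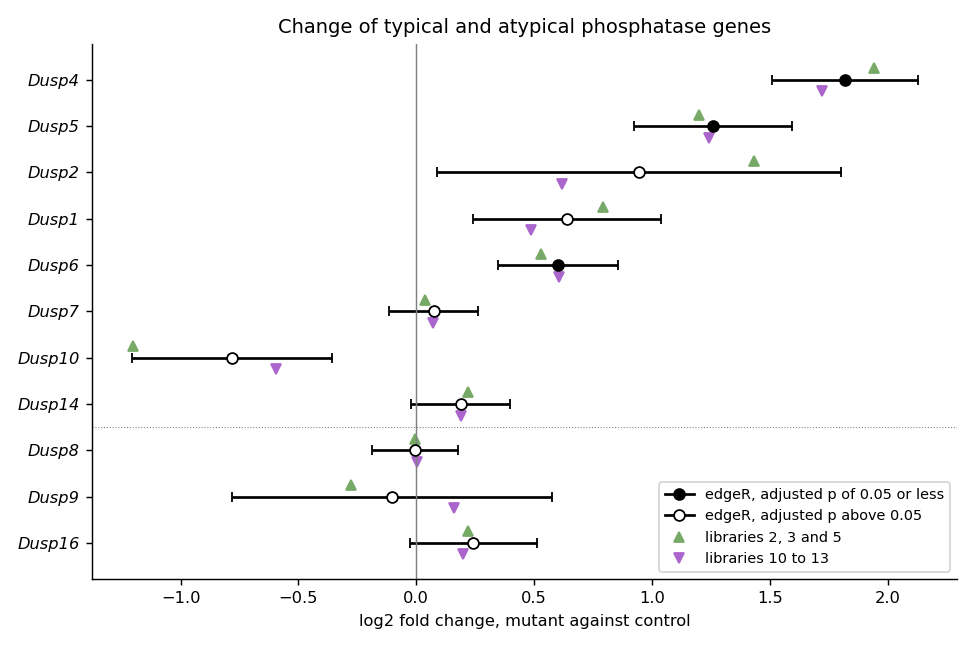
Log2 fold change of each phosphatase gene, mutant against control, from edgeR with its 95% interval, and triangles for the ratios of genotype means in each run of library numbers (2, 3 and 5, and 10 to 13). Dusp4 and Dusp5 lie farthest to the right at 1.82 and 1.26, Dusp10 lies to the left at -0.78, and the intervals of Dusp7 and Dusp14 include 0.

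With a term for the run of library numbers, edgeR called 4 of the 8 genes higher (6.16% of all genes tested) and 1 lower (5.04%). DESeq2 without that covariate also called 4 higher (5.09%) and 1 lower (3.70%). The genes gained by either were Dusp1, higher, and Dusp10, lower. Dusp2, Dusp7 and Dusp14 passed under none of the 17 alternatives.

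**Figure D4:**
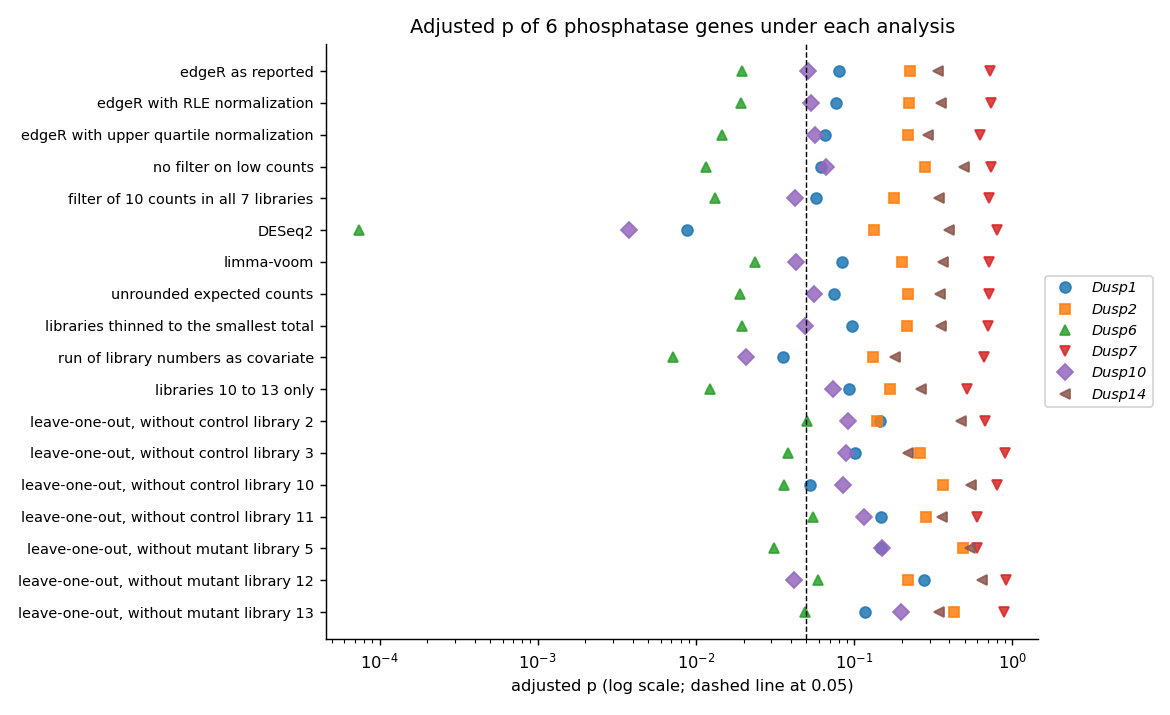
Adjusted p (log scale, dashed line at 0.05) of 6 phosphatase genes in the reported edgeR analysis and 17 alternatives. Dusp4 and Dusp5, which passed in every analysis, are not drawn. Dusp6 lies left of the line except without control library 2, control library 11 or mutant library 12, Dusp1 and Dusp10 cross it in some analyses, and Dusp2, Dusp7 and Dusp14 stay to its right.

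Over the 7 libraries Dusp5 and Dusp6 varied together (Pearson r = 0.98 of log2 CPM), also after each genotype's mean was taken off (r = 0.92). Dusp1 and Dusp6 gave 0.95 and 0.87, and Dusp1 and Dusp4 gave 0.88 and 0.82. For Dusp4 and Dusp5 the value was 0.97 over all libraries but 0.41 within genotypes. Dusp2 and Dusp10 varied in opposite senses, at -0.82 and -0.65. Mutant library 12 was the highest of all 7 libraries for Dusp1, Dusp4, Dusp5 and Dusp6, and these points share that library, so the values are descriptions only.

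The genes whose profile over the 7 libraries was most like that of a phosphatase, among 15761 genes with a mean of at least 1 CPM, are given by Pearson r as a description. Closest to Dusp4 were Stac2 (r = 0.997, log2 change 1.02) and Mamdc2 (r = 0.997, 0.91). Closest to Dusp5 were Serpina3n, a serine protease inhibitor of reactive astrocytes (r = 0.994, log2 change 0.96), and Ptgs2, the activity-induced cyclooxygenase (r = 0.993, 2.26). Closest to Dusp6 were Kit, a receptor tyrosine kinase that signals through ERK (r = 0.996, log2 change 0.35), and Adamts1, a secreted metalloprotease (r = 0.990, 1.60). These 6 genes were called higher in edgeR (2.97% of all genes tested), with adjusted p between 0.00086 (Stac2) and 0.0487 (Kit). They were picked for likeness over all 7 libraries, genotype difference included, to phosphatases that were themselves called higher. Their calls therefore follow largely from how they were picked and are not a separate result. Kit's call was lost without any 1 of the 7 libraries, and that of Mamdc2 without mutant library 12. For the other phosphatases the nearest genes were Ugt1a6a and Il12a for Dusp1 (r = 0.990 and 0.985), Tctn1 and Adamts20 for Dusp2 (0.993 and 0.987), Hmha1 and Scn3a for Dusp7 (both 0.973), Cfap69 and Cmc4 for Dusp10 (0.995 and 0.990), and Mfsd2b and Gnb1l for Dusp14 (0.968 and 0.960). None of these was called in the reported edgeR analysis, and they were picked for likeness to phosphatases that were not called in it either. Ugt1a6a was called by DESeq2 (adjusted p = 0.0195) and by edgeR with a term for the run (adjusted p = 0.0372).

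Of the remaining phosphatases of MAP kinases, Ptpn5 alone was called by edgeR. Dusp8, the most abundant of the typical MAP kinase phosphatases in this tissue at 46.9 CPM per kb in controls, read 8136 ± 461 normalized counts in controls and 8107 ± 382 in mutants (log2 change -0.01, 95% interval -0.19 to 0.18, edgeR adjusted p = 0.985). The sign of that small change turned under some alternatives. Dusp9 read 45.7 ± 16.7 and 42.4 ± 2.63, and Dusp16, a JNK phosphatase, read 462 ± 43.1 and 547 ± 55.8. None of these 3 genes was called by edgeR, DESeq2 or limma-voom, and 0 of them had an unadjusted p of 0.05 or less. Of 12 atypical Dusp genes, Dusp21 had a count of 0 in every library and the other 11 were tested, with none called by edgeR (3 at an unadjusted p of 0.05 or less, against 18.2% of all genes, and 1 called lower by DESeq2) and a median log2 change of -0.02. Dusp28 had the smallest p among them (log2 change -0.45, edgeR adjusted p = 0.0637). With a term for the run, edgeR called 2 of the atypical genes lower, Dusp28 among them (adjusted p = 0.0149). Of 3 tyrosine phosphatases that act on MAP kinases, Ptpn5, the striatum-enriched phosphatase of ERK and p38, rose from 5734 ± 490 to 7800 ± 348 normalized counts (log2 change 0.44, edgeR adjusted p = 0.0271). Its call was lost in 5 of the 7 analyses that left out 1 library, all but those without control library 3 or control library 11.

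Calls among the kinases that these enzymes act on, and in the cascade above them, are read against 4.85% of all genes tested. None of 19 ERK cascade kinases and adaptors was called by edgeR, and their median log2 change was -0.02, with 9 positive and 10 negative and 4 at an unadjusted p of 0.05 or less, a share near the 18.2% of all genes. Mapk3, which encodes ERK1, had the smallest p of that list (6005 ± 889 to 4495 ± 251 normalized counts, log2 change -0.42, edgeR adjusted p = 0.0963), and DESeq2 gave it 0.0215, its 1 call in this list. With a term for the run, edgeR called 2 of the 19 lower, Mapk3 among them (adjusted p = 0.0469). Of 14 JNK and p38 cascade genes 1 was higher and 1 lower: Mapk12, which encodes p38 gamma, read 122 ± 25.7 in controls and 228 ± 50.1 in mutants, and Mapk14, which encodes p38 alpha, read 3812 ± 198 and 2853 ± 302. Among 11 kinases downstream of MAP kinases, Rps6ka4 rose (log2 change 0.38) and Rps6ka2 fell (-0.53), and the median of the list was 0.29. DESeq2 called 3 of the 11 higher and 1 lower, and edgeR with a term for the run called 4 higher and 1 lower. In edgeR without that term 6 of the 11 had an unadjusted p of 0.05 or less, against 18.2% of all genes.

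The other feedback inhibitors and targets of ERK signalling are the Sprouty and Spred proteins and the Etv transcription factors. Of 11 such genes edgeR called 1 higher (2.97% of all genes tested) and 1 lower (1.87%), and the median log2 change was 0.18. DESeq2 called 3 higher (5.09%) and 2 lower (3.70%). With a term for the run, edgeR called 3 higher (6.16%) and 2 lower (5.04%). In edgeR without that term 7 of the 11 had an unadjusted p of 0.05 or less, against 18.2% of all genes. Spred2 read 3265 ± 252 normalized counts in controls and 4231 ± 202 in mutants (log2 change 0.37), and Etv1 read 2334 ± 313 and 1661 ± 110 (log2 change -0.49). Spry2, at 2020 ± 355 and 2959 ± 322, did not overlap between genotypes but did not pass the test (edgeR adjusted p = 0.0654). The calls of Mapk12, Mapk14, Rps6ka2, Rps6ka4, Spred2 and Etv1 had adjusted p between 0.0165 and 0.0478 in edgeR, and none held through leaving out each library in turn. That of Mapk14 was lost without any 1 library, those of Mapk12, Rps6ka2, Spred2 and Etv1 without any but control library 3, and that of Rps6ka4 without any but control libraries 2 and 3.

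Of 16 immediate early genes, which neurons transcribe within minutes of activity, 2 were called higher and none lower by edgeR (5 at an unadjusted p of 0.05 or less, against 18.2% of all genes), 3 higher and 1 lower by DESeq2, and 4 higher and 1 lower by edgeR with a term for the run, with a median log2 change of 0.04 and 8 changes in each direction. Npas4, an activity-dependent transcription factor, had normalized counts of 560, 290, 600 and 491 in the controls, against 1537, 2872 and 1175 in the mutants. Its genotypes did not overlap, and mutant library 12 was again the highest (log2 change 1.94, SE 0.327, edgeR adjusted p = 0.0130). Fosb read 472 ± 61.4 and 958 ± 304 (log2 change 1.02, edgeR adjusted p = 0.0332), a call lost in all leave-one-out analyses except that without mutant library 13. Fos at 1216 ± 245 and 1654 ± 657, Arc at 6130 ± 2199 and 5822 ± 1893, and Egr1 at 10793 ± 814 and 8792 ± 2913 overlapped between genotypes and were not called. The 16 genes summed to 868 to 1186 CPM in control libraries and 818 to 1355 in mutant libraries.

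**Figure D5:**
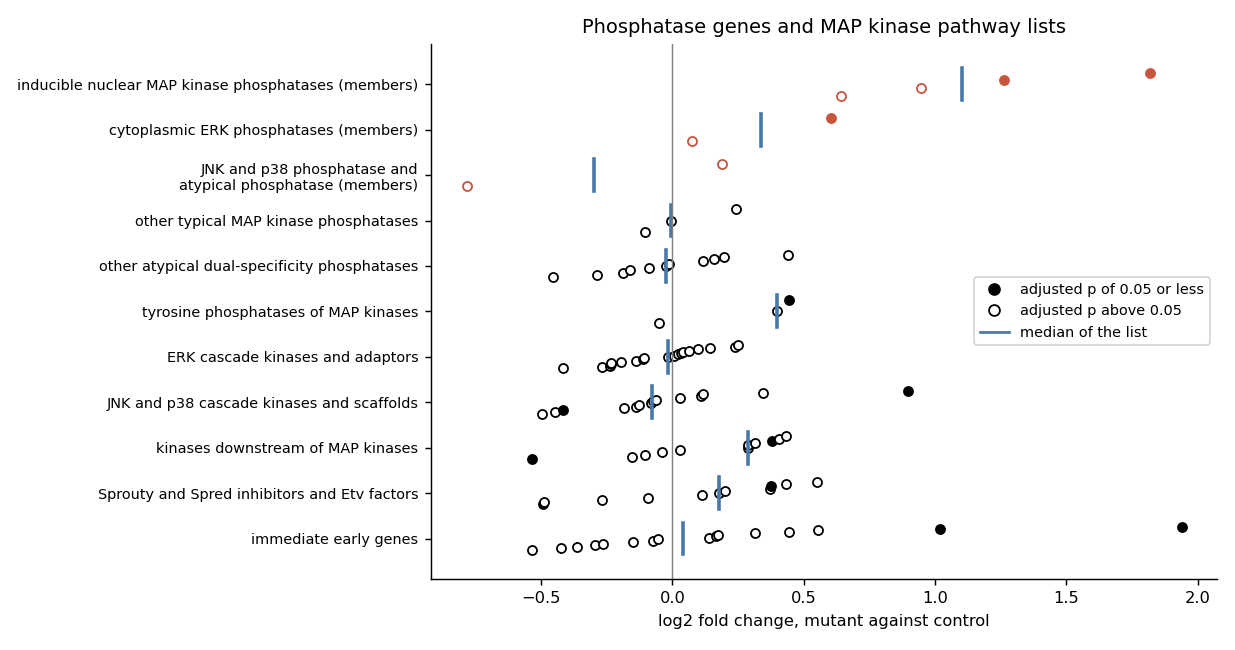
Log2 fold change, mutant against control, of every tested gene in the phosphatase lists (red) and in lists of the MAP kinase pathway and immediate early genes (black), with filled points for an edgeR adjusted p of 0.05 or less and a bar at each list's median. The 4 nuclear enzymes lie at 0.64 to 1.82, whereas the ERK cascade list centres on -0.02.

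Markers of cell types also differed between the genotypes. Calls in these lists are read against the shares of all genes tested. The shares were 2.97% higher and 1.87% lower in edgeR, and 5.09% and 3.70% in DESeq2. With a term for the run in edgeR they were 6.16% and 5.04%. Of 10 markers of MGE-derived interneurons 7 were lower and 1 higher, and they summed to 714 to 773 CPM in control libraries and 403 to 465 in mutant libraries. Of 10 markers of interneurons from the caudal ganglionic eminence 3 (Vip, Adarb2 and Ndnf) were higher, while 6 changes were positive and 4 negative, with a median log2 change of 0.24 and sums of 441 to 489 CPM in controls and 497 to 504 in mutants. Of 11 astrocyte markers, Gfap was called higher by edgeR and 10 changes were positive. DESeq2 and edgeR with a term for the run each called 3 higher. The astrocyte markers summed to 6192 to 8883 CPM in controls and 9691 to 11288 in mutants. Of 10 markers of oligodendrocytes and their precursors edgeR called 3 (Mbp, Mag and Cnp) lower, with sums of 7217 to 9180 and 5261 to 6443. In that list 8 changes were negative and 2 positive, and 6 genes had an unadjusted p of 0.05 or less, against 18.2% of all genes. DESeq2 called 4 lower and 1 higher, and edgeR with a term for the run called 7 lower. Of 8 striatal markers Penk was higher, with sums of 383 to 570 and 545 to 774, and the 10 endothelial markers, none called by edgeR, 3 called higher by DESeq2 and 5 by edgeR with a term for the run, summed to 265 to 302 and 335 to 360. No gene of the microglia (10) or choroid plexus (7) lists was called by edgeR or DESeq2 (2 and 1 at an unadjusted p of 0.05 or less, near the 18.2% of all genes), and edgeR with a term for the run called 1 microglia gene lower, with sums of 439 to 450 and 383 to 433 for microglia and 131 to 282 and 65.6 to 217 for choroid plexus. The part of these differences in the levels of the phosphatases was not tested.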

How the data were processed

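Total RNA of 7 forebrain pools was read as 36 bp single ends after TruSeq library preparation. Per the labels and the study's methods, the authors trimmed reads with CutAdapt 1.9.1, aligned them with Bowtie2 2.2.9 to the GRCm38 transcriptome of Ensembl release 84 and deposited RSEM 1.2.31 expected counts per gene, without normalization. RSEM shares a read that fits several genes among them, and between 32.9% and 36.0% of values in a library were not whole. The deposited DESeq2 comparison, with fold changes and p-values of the authors, was not used. The deposited exon annotation gave positions, exon lengths and overlaps, and no member's exons overlapped another gene. Shared 36-base words came from GENCODE mouse release 21 transcripts.

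Expected counts were rounded. A gene was kept if 3 or more libraries had 10 or more counts, and genes were scaled by TMM and tested with edgeR 4.0.16 (quasi-likelihood, no covariate, Benjamini-Hochberg threshold 0.05, R 4.3.3). Normalized counts were counts divided by effective library size and multiplied by its mean. For edgeR, standard errors were worked back from the fitted change and its test statistic. The 95% intervals use these errors and the degrees of freedom of the fit. DESeq2 1.42.0 and limma-voom (limma 3.58.1) were among 17 alternatives, with RLE and upper quartile scaling, other filters, unrounded and thinned counts, the run of library numbers as covariate, libraries 10 to 13 only, and each library left out. Scripts were tested on simulated data. Libraries of a genotype differed by more than sampling noise (chi-square per degree of freedom 10.2 to 72.6), so each counted as 1 replicate. The p-values set the genotype difference against the spread between pools. Without a covariate that spread includes any difference between the runs of library numbers. Pairs within libraries 10 to 13 gave 10.2 and 10.8, controls 2 and 3 gave 38.5, and pairs across the runs gave 45.8 to 72.6.

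The members, lists and tests were chosen with earlier results of these data known. Named genes are every member, Lhx6, Dusp8, Dusp9 and Dusp16, up to 4 called genes of each pathway list with the largest change (or, with none called, the smallest p), the 2 genes most correlated with each member, and members of a list beside its result. Results of 2 cell type marker lists are not reported here.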

Additional observations from a re-analysis of the deposited data

Results flagged for a closer look

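In the 4 control libraries Dusp5 had 1 library apart from the rest. Control library 10, at 507 normalized counts, lay above the other 3, at 382 to 390, and the gap was 0.940 of the control range, above Dixon's 95% critical value. The mutant libraries, at 893 to 1194, all lay above it. Mapk12 had the same kind of gap in controls, at 0.880 of the range, with control library 3 at 161 and the others at 107 to 114. Rps6ka2 had 1 at 0.903 of the range, with control library 3 low at 2492 and the others at 3264 to 3346. Chance alone gives such a gap in about 1 of 20 groups. These genes were flagged from a larger number of named genes, so some such gaps are expected by chance. The cause was not tested.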

How the results depend on the processing

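Of the 8 phosphatase genes, Dusp2, Dusp4, Dusp5, Dusp7 and Dusp14 kept their direction and their side of the threshold under all 17 alternatives, Dusp6 under 14, Dusp1 under 15 and Dusp10 under 11. The number of phosphatase genes called was 5 with DESeq2 and 5 with the run of library numbers as covariate, and 2 to 3 with 1 library left out. The number called lower, 0 in the reported analysis, was 1 with the filter on all 7 libraries, DESeq2, limma-voom, thinned libraries and the run covariate, and 0 to 1 with 1 library left out. That gene was Dusp10. Genes called in all, 954 as reported, numbered 1731 with DESeq2, 2205 with the run covariate, 1922 with libraries 10 to 13 only and 302 to 971 with 1 library left out. Genes of the pathway and cell type lists called, 32 as reported, numbered 54, 65 and 55 under the same 3 analyses and 9 to 29 with 1 library left out. The log2 change of Dusp8 turned from -0.01 to 0.019 with upper quartile scaling, 0.00044 with the run covariate and 0.014 with libraries 10 to 13 only, and ran from -0.033 to 0.034 with 1 library left out. That of Dusp9 turned from -0.10 to 0.17 with libraries 10 to 13 only and ran from -0.28 to 0.15 with 1 library left out. The cause of these shifts was not tested.

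No paired analysis was possible because the library columns carry no replicate number of the sample records. With 4 and 3 pools, small changes such as those of Dusp7 and Dusp14 were not resolved beyond their intervals. Dusp2 had the fewest counts of the 8 genes, at 24.1 to 133 normalized counts.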
